A study of Mus musculus with 5 samples.

Results

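Hepatocytes collected 96 h after partial hepatectomy were compared with hepatocytes collected 48 h after it, over all genes. A barcode was taken as a hepatocyte when it held at least 5000 unique molecular identifiers (UMIs, 1 per captured RNA molecule), when 10 to 30% of them came from mitochondrially encoded genes, and when albumin, apolipoprotein A1 and transthyretin together made up at least 1% of them. This gave 719 hepatocytes at 48 h and 771 at 96 h, or 1490 of the 5691 hepatocytes that the same rule found in the 5 libraries of the series. Those 5 libraries held 14704 barcodes of at least 5000 UMIs.

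Both libraries came from adult C57BL/6J mice that had a 2/3 partial hepatectomy, an operation that takes out most of the liver, at 8 weeks of age. Cells were released by 2-step perfusion, cleared of dead cells with a removal kit, and captured with the 10x v3 droplet kit for sequencing on an Illumina NovaSeq. An adult control library and a library taken 24 h after surgery, prepared in the same way, are given as context. The labels contradict each other on the control, which the treatment protocol counts among the operated samples while its title and source call it a control. The sex, the number of animals behind a library and the time of day of collection are not given in the sources used here. The 48 h and 96 h libraries carry the same lane code in their descriptions (L001), whereas the control carries another (L002). Each time point is 1 library, so the values below compare 2 libraries, the intervals cover counting error only, and no p-value is given.

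The liver restores its mass after hepatectomy mainly by division of its remaining hepatocytes, which keep working while they divide. Hepatocytes make the acute phase proteins of the blood in response to cytokines such as interleukin 6, and they hold the urea cycle, much of amino acid breakdown, gluconeogenesis, and bile acid synthesis. Many of these functions are divided between hepatocytes near the portal vein (periportal) and those near the central vein (pericentral).

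All 9 hepatocyte markers were detected in both libraries. Of the genes the rule used, albumin (Alb) stood at 24291 CPM at 48 h and 58855 at 96 h, Ttr at 5317 and 11407, and Apoa1 at 6140 and 8583, and nothing is read from them. The median hepatocyte held 35432 UMIs at 48 h and 22075 at 96 h, and a median of 24.5% and 26.0% of UMIs were mitochondrial. After removal of the mitochondrial genes the hepatocytes summed to 20833042 UMIs at 48 h and 13439340 at 96 h. Free RNA, read in near-empty droplets, amounted to 290 UMIs per barcode at 48 h and 795 at 96 h, or 0.818% and 3.60% of a median hepatocyte. It was highest in the control among the libraries used here, at 1328.5 UMIs (7.17%), with 670 (3.42%) at 24 h. The control and 24 h levels given below were not corrected for it. No hepatocyte barcode was shared between the 48 h and 96 h libraries. The upper mitochondrial limit left out more barcodes at 96 h (1701 of 3156 hepatocyte-type barcodes) than at 48 h (363 of 1258). At 96 h the 206 barcodes just inside it (28 to 30% mitochondrial) had a median of 18439 UMIs and the 230 just outside it (30 to 32%) a median of 15626.5. The corresponding 125 and 79 barcodes at 48 h had medians of 24340 and 18764 UMIs.

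Levels are given as CPM, the counts of a gene per 1000000 non-mitochondrial UMIs, of the summed hepatocytes of a library, and ratios as log2 of (CPM + 1) at 96 h over (CPM + 1) at 48 h. The added 1 CPM makes the ratios of genes with few counts smaller than they would otherwise be. Of 7046 genes with a mean of at least 10 CPM, 298 (4.23%) were at least 2-fold higher at 96 h and 227 (3.22%) were at least 2-fold lower. The median log2 ratio over all of them was 0.11. Because the minimum is a mean of both libraries, a gene could pass it through the library where it was high. The 15 lowest ratios included 6 acute phase genes, both metallothioneins, the mitosis gene Ube2c and 4 genes known from blood cells (S100a8, S100a9, Prtn3 and Igha). The highest ratios were those of the hepcidin copy Hamp2, the clock gene Dbp, Arrdc3 and Clec2h.

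**Figure D1:**
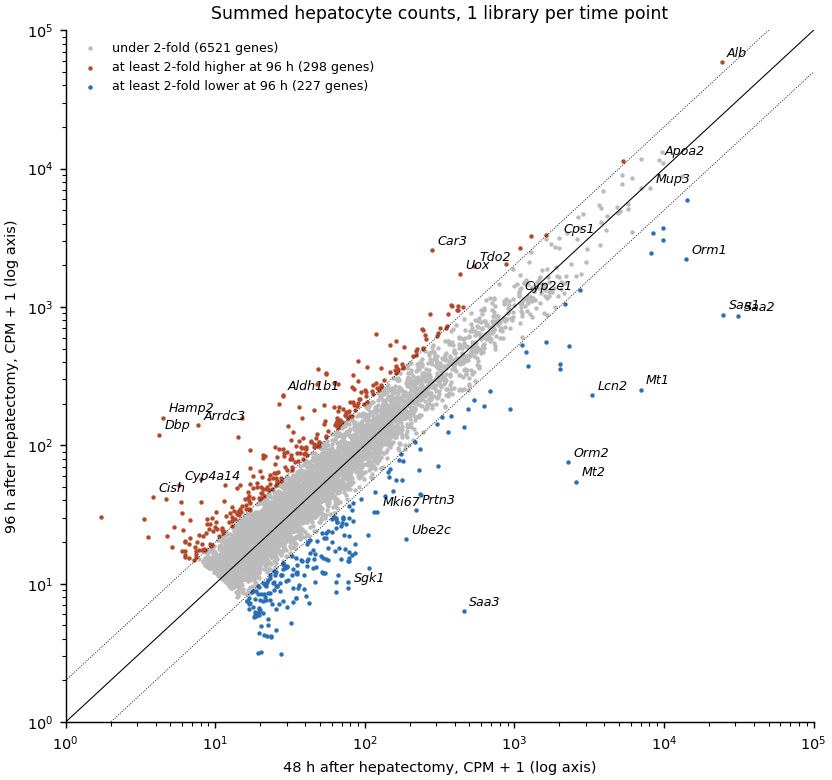
Level of each of 7046 genes in summed hepatocytes at 48 h (horizontal, CPM + 1, log axis) and 96 h (vertical, CPM + 1, log axis), 1 library per time point; dotted lines mark a 2-fold difference. Saa1, Saa2, Mt1, Mt2 and Orm2 lie far below the diagonal, and Hamp2, Dbp and Arrdc3 far above it.

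Acute phase and metallothionein genes took up 15.3% of all non-mitochondrial UMIs at 48 h and 3.13% at 96 h. A scaling that gives such dominant genes less weight (TMM) moved the median of all genes to 0.01, and 230 genes were then at least 2-fold higher and 261 lower (46.8% of calls higher, in place of 56.8%). The order of the gene lists below was read against the median of all genes. The lists themselves were described by counts and medians, and none was compared with chance. Each count of 2-fold members stands beside the 4.23% (higher) and 3.22% (lower) of all genes. Among lists with at least 5 measured members, only the list of p53 and arrest genes changed the sign of its median under this scaling, from 0.08 to -0.01.

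**Figure D2:**
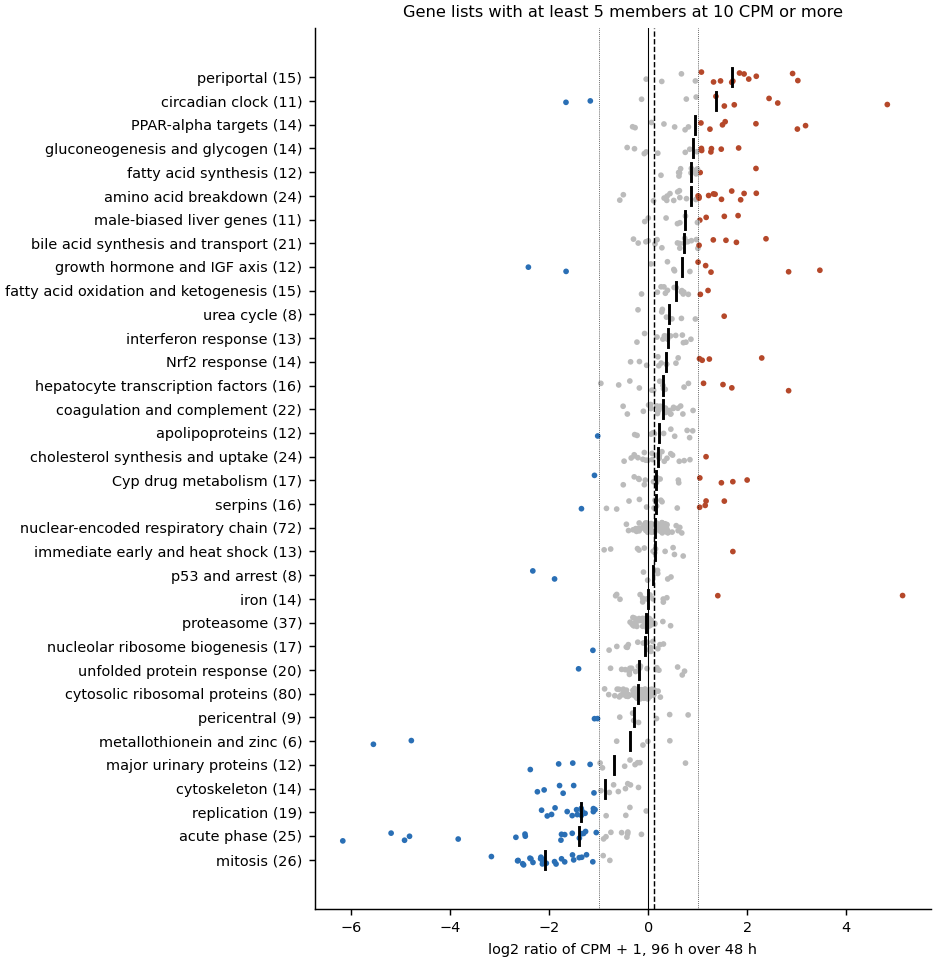
Log2 ratio of (CPM + 1) at 96 h over 48 h for the members of each gene list with a mean of at least 10 CPM (1 dot per gene, number of genes in parentheses, lists with at least 5 such genes); black bars are list medians, the dashed line is the median of all 7046 genes and dotted lines mark 2-fold. The periportal list has the highest median (1.68) and the mitosis list the lowest (-2.10).

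Of the 25 measured acute phase genes, 17 were at least 2-fold lower at 96 h and none was 2-fold higher. All 25 ratios lay below 0, and their median was -1.40. Saa1 and Saa2 encode the serum amyloid A proteins that the liver secretes in inflammation. Saa2 stood at 1365 CPM in the control, 20968 at 24 h, 31492 (95% Poisson interval 31416 to 31568) at 48 h, and 856 (840 to 872) at 96 h. Saa1 had 2029, 17157, 24977 and 879 CPM in the same order. For both genes the 96 h library was the lowest of the 4, and the ratios were -5.20 and -4.83. Saa3, a family member that is also made outside the liver, had 18.7 CPM in the control, 459 CPM (449 to 468) at 48 h, and 5.36 CPM (4.19 to 6.75) at 96 h. Its ratio of -6.18 was the lowest of all genes tested. Saa1 and Saa2 are near copies of each other, so counts may be split between them in ways that cannot be checked here.

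Orm1 and Orm2 encode orosomucoid, a carrier protein of the plasma, and were also highest at 48 h. At 96 h Orm1 stood above the control and Orm2 close to it. Orm2 had 71.2 CPM in the control and 1640, 2297 and 74.5 CPM at 24, 48 and 96 h (ratio -4.93). Orm1 had 1520, 10889, 14114 and 2205 CPM (ratio -2.68). Orm3, below the level minimum, was highest at 24 h, with 3.30, 20.6, 4.66 and 1.26 CPM. Lcn2, which encodes the iron-scavenging lipocalin 2, was highest at 24 h: it had 72.3 CPM in the control and 4874, 3307 and 229 CPM at 24, 48 and 96 h (ratio -3.84). Apcs (serum amyloid P) went from 2006 CPM at 48 h to 355 at 96 h, against 119 in the control.

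The fibrinogen chains and the scavengers of haemoglobin and haem differed less. Fga, a fibrinogen chain, had 3241 CPM in the control, 9909 at 48 h and 3067 at 96 h (ratio -1.69). Hp (haptoglobin) had 3126, 8247 and 2440 CPM, and Hpx (hemopexin) 4098, 14281 and 5922. The other fibrinogen chains, Fgb and Fgg, had 3094 and 2798 CPM in the control, 9848 and 8497 at 48 h, and 3743 and 3426 at 96 h. Thus Hp and, by little, Fga were below the control at 96 h, whereas Fgb, Fgg and Hpx were above it. The scaling was not checked against the control. Among genes of the signalling side, Cebpd, a transcription factor induced by interleukin 6, had 22.6 CPM at 48 h and 3.20 at 96 h (ratio -2.49). Stat3, which carries the signal to the nucleus, had 164 and 121 CPM. Its feedback inhibitor Socs3 had 22.5 and 12.9 CPM, both below the 69.7 CPM of the control. Crp had 492 and 446 CPM.

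The 250 bases before the RefSeq start of 3 serum amyloid genes are shown because these genes had some of the largest differences, with capitals marking the word TTGCNNAA, the core of a C/EBP binding site, on either strand (build GRCm38.p6, the RefSeq release of mm10). Saa1 lies at chr7:46742981-46743230 (minus strand), Saa2 at chr7:46751583-46751832 (plus strand) and Saa3 at chr7:46715677-46715926 (minus strand).
Saa1: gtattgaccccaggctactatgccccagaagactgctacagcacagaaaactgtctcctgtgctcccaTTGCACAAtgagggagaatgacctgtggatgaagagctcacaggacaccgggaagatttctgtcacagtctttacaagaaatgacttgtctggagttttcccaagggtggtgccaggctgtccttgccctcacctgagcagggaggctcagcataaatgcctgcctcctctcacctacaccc
Saa2: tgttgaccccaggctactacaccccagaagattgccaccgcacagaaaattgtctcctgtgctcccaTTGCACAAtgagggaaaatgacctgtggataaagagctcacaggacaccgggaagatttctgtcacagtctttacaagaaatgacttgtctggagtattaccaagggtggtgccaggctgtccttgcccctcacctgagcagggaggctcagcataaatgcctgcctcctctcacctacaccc
Saa3: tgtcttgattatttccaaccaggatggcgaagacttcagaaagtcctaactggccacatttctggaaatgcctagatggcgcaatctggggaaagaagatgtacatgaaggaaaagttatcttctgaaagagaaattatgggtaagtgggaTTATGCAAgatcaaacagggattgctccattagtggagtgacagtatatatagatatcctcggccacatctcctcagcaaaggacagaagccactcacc
The word began 182 bases before the start of Saa1, 183 before that of Saa2 and 99 before that of Saa3, where it lay on the opposite strand. Over both strands it was found in 13 of the 25 windows of this length that matched 22 of the 27 listed acute phase genes (52.0%), and in 3142 of all 32851 windows (9.56%). The STAT word TTCNNNGAA was in 6 of the 25 windows (24.0%) and in 7.02% of all windows. A match is a run of letters and does not show that a factor was bound.

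Some acute phase genes and the whole list were also counted per cell. Each hepatocyte was thinned at random to 3500 non-mitochondrial UMIs so that cells of unequal depth could be compared. Saa1 and Saa2 together then gave a median of 181 UMIs per cell at 48 h (10th to 90th percentile 98 to 294) and 4 at 96 h (0 to 17), so these ranges did not overlap. Orm1 and Orm2 gave medians of 54 (29 to 81) and 7 (3 to 14), and Lcn2 gave 11 (5 to 17) and 0 (0 to 2). The whole acute phase list gave 489 UMIs per cell at 48 h and 107 at 96 h, against 101 in the control. In sums, fewer expressing cells and less RNA per cell cannot be told apart. In these per-cell counts the 90th percentile at 96 h lay below the 10th percentile at 48 h for all 3 pairs or genes. These were among the acute phase genes of lowest ratio (-2.68 to -5.20), and the other members were not counted singly. How often such ranges lie apart over all genes was not computed. Free RNA held the same genes, with Saa2 at 27422 CPM of free RNA at 48 h and 1562 at 96 h.

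**Figure D3:**
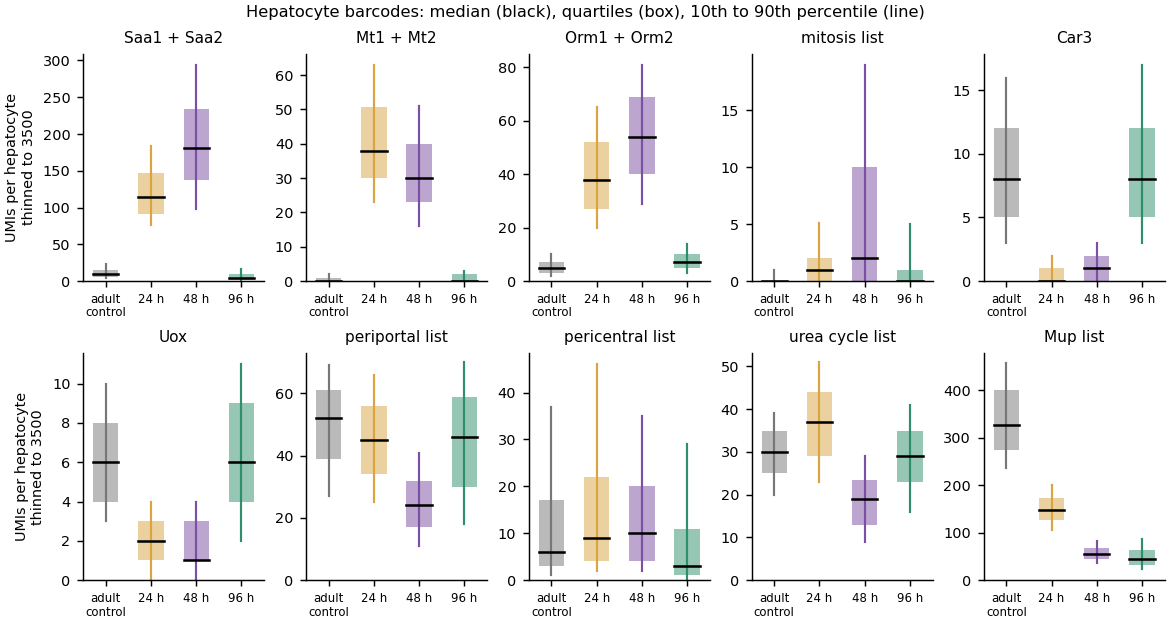
UMIs per hepatocyte (vertical axis, linear) for gene pairs, single genes or gene lists after thinning every hepatocyte to 3500 non-mitochondrial UMIs, in the control, 24 h, 48 h and 96 h libraries; black bar, median; box, quartiles; line, 10th to 90th percentile. Saa1 + Saa2 has medians of 181 at 48 h and 4 at 96 h, and Car3 medians of 1 and 8.

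Metallothioneins are small metal-binding proteins that respond to zinc, glucocorticoids and inflammation. Mt1 had 119 CPM in the control, 8399 CPM at 24 h, 6980 CPM (6944 to 7016) at 48 h, and 251 CPM (243 to 260) at 96 h, a ratio of -4.79. Mt2 had 39.9, 3759, 2576 and 53.7 CPM (ratio -5.56). Both were highest at 24 h, and at 96 h both were still above the control. Per thinned cell the pair gave a median of 30 UMIs at 48 h (16 to 51) and 0 UMIs at 96 h (0 to 3). The zinc importer Slc39a14 (329 and 210 CPM) and the other 3 measured zinc transporters stayed under 2-fold.

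The windows before both metallothionein genes are shown with capitals on the word TGCNCNC, on either strand. This word is looser than the core of a metal response element, TGCRCNC, where R is A or G. Mt1 lies at chr8:94178839-94179088 and Mt2 at chr8:94172368-94172617, both on the plus strand.
Mt1: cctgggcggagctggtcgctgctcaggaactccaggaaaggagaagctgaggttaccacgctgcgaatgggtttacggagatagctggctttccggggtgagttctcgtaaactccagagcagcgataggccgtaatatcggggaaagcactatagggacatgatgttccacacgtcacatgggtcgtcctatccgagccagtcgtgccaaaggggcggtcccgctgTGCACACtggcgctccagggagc
Mt2: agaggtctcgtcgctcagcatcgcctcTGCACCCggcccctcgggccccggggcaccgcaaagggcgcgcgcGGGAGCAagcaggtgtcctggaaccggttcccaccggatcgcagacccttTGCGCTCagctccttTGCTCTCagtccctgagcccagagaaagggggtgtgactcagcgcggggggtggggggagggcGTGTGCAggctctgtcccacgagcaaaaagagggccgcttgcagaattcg
The looser word TGCNCNC had 1 match before Mt1 and 5 before Mt2, and 44.4% of all windows held at least 1. The Mt2 matches TGCTCTC and GGGAGCA do not hold the stricter core on either strand.

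Mitosis genes were lower at 96 h. Of 26 measured members 24 were at least 2-fold lower, none was higher, and the median ratio was -2.10. Ube2c, which helps the anaphase-promoting complex destroy cyclins, had 2.70 CPM in the control, 51.5 CPM at 24 h, 188 CPM (182 to 194) at 48 h, and 19.9 CPM (17.6 to 22.5) at 96 h. Mki67, a nuclear protein used to mark dividing cells, had 1.43, 46.7, 120 and 32.1 CPM. The 48 h library was thus the highest of the 4, and the 96 h library remained above the control. Aurkb, the kinase of the chromosome passenger complex, had 31.3 CPM at 48 h and 4.17 at 96 h (ratio -2.64). Nusap1, a spindle protein, had 62.9 and 9.30 CPM (ratio -2.63), and Aurka, a centrosome kinase, 41.2 and 6.25 (ratio -2.54). The 2 members under 2-fold were Ccnb2, a mitotic cyclin (60.2 and 34.7 CPM), and Cks2, a cyclin-dependent kinase subunit (128 and 67.4 CPM).

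Of 19 measured replication genes 15 were at least 2-fold lower at 96 h and none higher, with a median ratio of -1.35. The replicative helicase subunit Mcm3 had 1.80 CPM in the control and 54.3, 21.4 and 4.02 CPM at 24, 48 and 96 h (ratio -2.16), so that the 24 h library was the highest. Mcm2 and Mcm5 had ratios of -2.04 and -1.96. The flap endonuclease Fen1 had 25.5 and 6.18 CPM. Tk1 (thymidine kinase), an enzyme of nucleotide supply, differed little, at 21.7 and 21.1 CPM. Mcm10, a replication gene outside the list that was singled out after its value was seen, went the other way, with 24.0 CPM at 48 h and 95.8 at 96 h against 133 in the control.

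Counted per cell, 310 of 719 hepatocytes at 48 h (43.1%, 95% exact binomial interval 39.5 to 46.8) and 96 of 771 at 96 h (12.5%, 10.2 to 15) had UMIs of at least 3 mitosis genes after thinning. The share was 0.649% in the control and 17.4% at 24 h. Replication-positive cells, by the same count of genes, made up 37.7% at 48 h and 9.86% at 96 h, against 55.4% at 24 h and 2.70% in the control. Cells positive for both made up 21.8% and 4.67%. Cells with 0 mitosis genes and at most 1 replication gene, called non-cycling here, made up 16.7% at 48 h and 48.4% at 96 h.

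**Figure D4:**
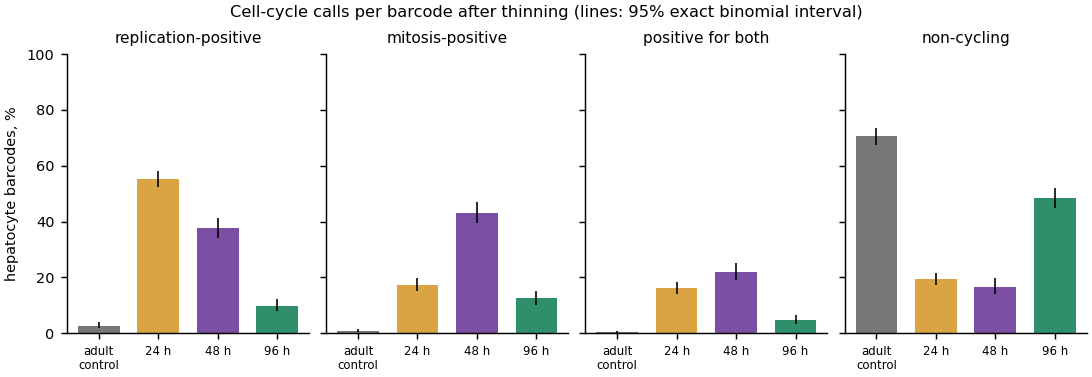
Percent of hepatocyte barcodes (vertical axis, from 0) called replication-positive, mitosis-positive, positive for both, or non-cycling after thinning to 3500 UMIs, in 4 libraries; lines are 95% exact binomial intervals. Mitosis-positive cells peak at 48 h (43.1%) and replication-positive cells at 24 h (55.4%).

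The windows before Ube2c (chr2:164769679-164769928, plus strand) and Cdc20 (chr4:118437344-118437593, minus strand), a mitotic activator with 73.2 CPM at 48 h and 16.7 at 96 h, are shown for this group. Capitals mark TTTGAA, the cell-cycle homology region word found before many mitosis genes, on either strand.
Ube2c: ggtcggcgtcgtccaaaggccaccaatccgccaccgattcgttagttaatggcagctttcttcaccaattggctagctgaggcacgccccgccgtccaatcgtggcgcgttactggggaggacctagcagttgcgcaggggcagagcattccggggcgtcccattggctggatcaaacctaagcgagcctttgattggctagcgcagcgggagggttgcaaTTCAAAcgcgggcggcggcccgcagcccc
Cdc20: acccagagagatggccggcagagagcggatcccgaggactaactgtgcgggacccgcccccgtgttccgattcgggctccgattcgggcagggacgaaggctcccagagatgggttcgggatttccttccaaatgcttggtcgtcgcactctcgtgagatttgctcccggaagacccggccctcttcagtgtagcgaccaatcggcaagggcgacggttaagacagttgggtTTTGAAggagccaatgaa
The word was in 8 of the 27 windows that matched 26 of the 30 listed mitosis genes (29.6%) and in 16.0% of all windows.

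Of 14 measured cytoskeleton genes 6 were at least 2-fold lower at 96 h and none higher (median -0.88, or -0.36 at 10 to 20% mitochondrial UMIs), and all 6 were tubulins. Tubb5 had 66.1 CPM in the control and 259, 306 and 70.3 CPM at 24, 48 and 96 h (ratio -2.11). Tubb6 had 3.75, 38.7, 105 and 21.4 CPM (ratio -2.24). Actb, at 1595 and 1388 CPM, and the keratin Krt18, at 384 and 235, stayed under 2-fold. In the list of p53 targets and cell-cycle arrest genes 2 of 8 members were lower. Cdkn1a, which encodes the cell-cycle inhibitor p21, had 2.25 CPM in the control and 107, 76.9 and 14.4 CPM at 24, 48 and 96 h (ratio -2.34). Gadd45g had 151, 67.6, 66.7 and 17.2 CPM. The p53 target Mdm2 was at 33.0 and 32.7 CPM, and the median of the list was 0.08.

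Sgk1 and Isyna1, which are in none of those lists, were also among the 15 lowest. Sgk1, a kinase induced by glucocorticoids and serum, had 4.21 CPM in the control, 76.7 at 48 h and 8.33 at 96 h (ratio -3.06). Isyna1, which makes inositol phosphate from glucose 6-phosphate, had 3.38, 76.4 and 9.38 CPM (ratio -2.90). Both were above the control at 48 h and at 96 h, and highest at 48 h.

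Periportal genes had the highest median of any list with at least 5 measured members, 1.68, with 11 of 15 members at least 2-fold higher at 96 h and none lower. Without mixed barcodes, those that carried 3 or more markers of another cell class, which kept only 22 barcodes at 48 h, the median was 0.90, below that of fatty acid synthesis (0.93). Aldh1b1, a mitochondrial aldehyde dehydrogenase, had 63.3 CPM in the control, 43.8 CPM at 24 h, 27.2 CPM (25 to 29.6) at 48 h, and 228 CPM (220 to 236) at 96 h. Hsd17b6, a steroid dehydrogenase, had 106, 41.0, 25.6 and 199 CPM. Both were highest at 96 h, above the control, with ratios of 3.02 and 2.91. Hal (histidase) had 376, 233, 88.5 and 405 CPM, and Gls2 (liver glutaminase) 331, 151, 83.0 and 320, so both stood close to the control at 96 h. Cyp2f2, the best known periportal cytochrome P450, had 1882, 500, 274 and 895 CPM and remained below the control. Pck1 (1523 and 1476 CPM) and Arg1 (1068 and 1288) were the members closest to no difference. This list shares Hal, Sds, Gls2, Pck1, Arg1, Ass1 and Cps1 with the metabolic lists and Cyp2f2 with the cytochrome P450 list below.

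Per thinned cell the periportal list gave a median of 24 UMIs (11 to 41) at 48 h, 46 UMIs (18 to 70) at 96 h, against 52 in the control. With each cell thinned to 1000 UMIs, 9.87% of hepatocytes (7.79 to 12.3) had a UMI of Hal at 48 h and 32.8% (29.5 to 36.3) at 96 h. T and NK barcodes of the same libraries, which should lack Hal, showed it in 1.17% and 6.08%, at median depths of 5705 and 6209 UMIs against 26230 and 16034 in hepatocytes. For Cyp2f2 the shares were 19.1% (16.2 to 22.1) and 49.3% (45.7 to 52.9), with 1.57% and 3.31% in T and NK barcodes.

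Pericentral genes did not move together. Of 9 measured members 2 were at least 2-fold lower and none higher, with a median of -0.30. The median was -1.48 among barcodes of 10 to 20% mitochondrial UMIs (116 at 48 h and 53 at 96 h) and -0.73 among non-cycling ones. It was -0.12 without mixed barcodes, -0.10 without a level minimum and -0.19 with a pseudocount of 10 CPM. Glul (glutamine synthetase), which marks the innermost hepatocytes around the central vein, had 229 CPM in the control, 159 at 48 h and 214 at 96 h. Cyp2e1 had 2143, 1081 and 1210 CPM. Lect2 and Cyp2c29 were the members 2-fold lower, with 325 and 159 CPM and 1124 and 527 CPM. Per thinned cell the list gave a median of 10 UMIs (2 to 35) at 48 h and 3 (0 to 29) at 96 h, and 97.8% of cells at 48 h and 83.3% at 96 h had at least 1. Among non-cycling cells Cyp2e1 had a ratio of -0.28 in place of 0.16.

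**Figure D5:**
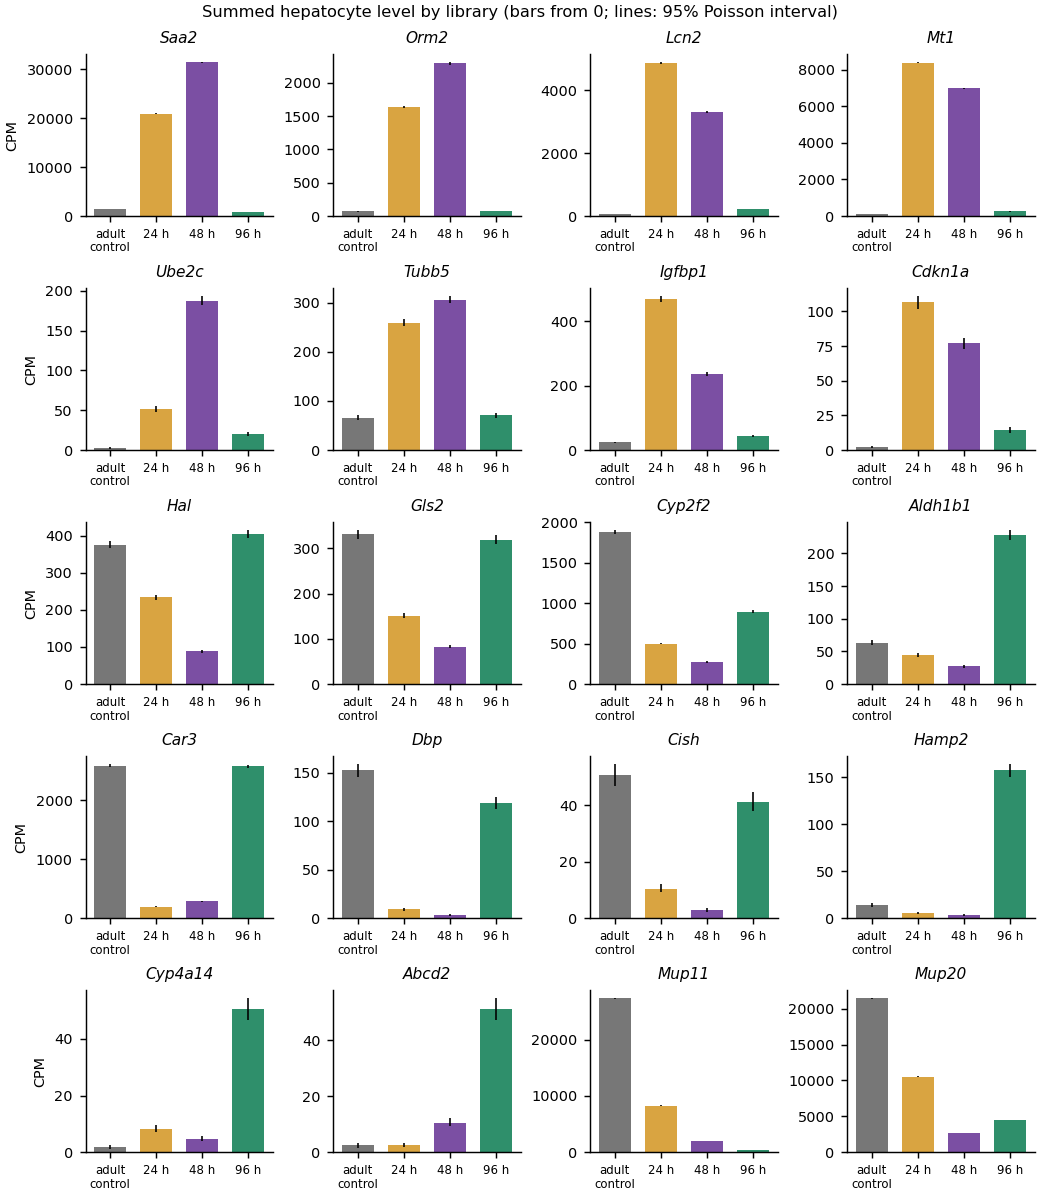
Summed hepatocyte level (CPM, linear axis from 0) of 20 genes in the control, 24 h, 48 h and 96 h libraries, 1 library each; lines are 95% Poisson intervals, which cover counting error only. Saa2, Orm2 and Ube2c are highest at 48 h, whereas Aldh1b1, Hamp2, Cyp4a14 and Abcd2 are highest at 96 h.

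The urea cycle turns ammonia into urea. Of its 8 measured genes 1 was at least 2-fold higher at 96 h, and the median ratio was 0.42. Otc (ornithine transcarbamylase) had 710 CPM in the control and 321, 240 and 694 CPM at 24, 48 and 96 h (ratio 1.53). Ass1 had 1680, 1376, 980 and 1892 CPM (ratio 0.95), and Cps1, the entry enzyme, 3366, 5127, 1974 and 3134 (ratio 0.67). Nags, which makes the activator of Cps1, was the only member with a ratio below 0 (98.7 and 85.2 CPM). The list gave a median of 19 UMIs per thinned cell at 48 h and 29 at 96 h, against 30 in the control.

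Among 24 amino acid breakdown genes 11 were at least 2-fold higher and none lower (median 0.86). Tdo2, the first enzyme of tryptophan breakdown, had 2496 CPM in the control and 827, 540 and 1969 CPM at 24, 48 and 96 h (ratio 1.86). Sds (serine dehydratase) had 139, 124, 89.7 and 290 CPM (ratio 1.68). Cth, which makes cysteine, had 245 CPM at 48 h and 685 at 96 h. Tat and Oat were lower, at 1396 and 982 CPM and at 740 and 495 CPM, both under 2-fold.

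In carbohydrate metabolism 6 of 14 genes were at least 2-fold higher and none lower (median 0.91). Pklr (liver pyruvate kinase) had 60.8 CPM in the control and 19.7, 13.6 and 50.6 CPM at 24, 48 and 96 h (ratio 1.82). Glycogen synthase Gys2 and the glucose 6-phosphate transporter Slc37a4 had ratios of 1.27 and 1.26. The gluconeogenic Pck1 and G6pc, by contrast, were at 1523 and 1476 CPM and at 177 and 131 CPM. Outside the list, the glucose transporter Slc2a2, chosen after its value was seen, had 54.0 CPM at 48 h and 330 at 96 h, against 317 in the control.

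Targets of PPAR-alpha, the fatty acid sensor of the liver, were at least 2-fold higher in 7 of 14 measured members, with none lower (median 0.93, or 0.52 without mixed barcodes). Cyp4a14, a fatty acid omega-hydroxylase, had 1.80 CPM in the control, 8.30 CPM at 24 h, 4.70 CPM (3.82 to 5.73) at 48 h, and 50.5 CPM (46.8 to 54.5) at 96 h. Cyp4a10 had 16.2, 9.22, 13.2 and 114 CPM, and its counts may be shared with Cyp4a31. Abcd2, a peroxisomal fatty acid transporter, had 2.40, 2.51, 10.6 and 51.1 CPM. All 3 were above the control at 96 h, and their ratios were 3.18, 3.01 and 2.17. Acot1 (14.8 and 11.7 CPM) and Angptl4 (44.7 and 36.9 CPM), other targets of the same receptor, had ratios below 0.

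Mitochondrial fatty acid oxidation and ketogenesis had 2 of 15 members at least 2-fold higher (median 0.56). Hadhb, a subunit of the trifunctional protein of beta-oxidation, had 113 CPM at 48 h and 234 at 96 h (ratio 1.05). Fatty acid synthesis had 2 of 12 higher (median 0.86). Thrsp, a regulator of lipogenesis, had 488 CPM in the control and 103, 61.2 and 279 CPM at 24, 48 and 96 h (ratio 2.17). The desaturase Scd1 had 1301 and 2502 CPM (ratio 0.94), and Fasn 99.5 and 153. Both lists had medians above that of all genes.

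Cholesterol synthesis differed little, with 1 of 24 genes at least 2-fold higher (Stard4, a sterol carrier, at 77.8 and 176 CPM) and a median of 0.20. Of 21 bile acid genes 5 were higher and none lower (median 0.72). Cyp8b1, which makes cholic acid, had 195 CPM in the control and 42.4, 35.3 and 187 CPM at 24, 48 and 96 h (ratio 2.38). Cyp7a1, the rate-limiting enzyme, was at 197 and 171 CPM, far above the 22.2 CPM of the control at both times. The sterol exporters Abcg5 and Abcg8 had ratios of 1.31 and 1.78. The bile acid importer Slc10a1 had 355 and 724 CPM (ratio 1.02).

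Of 17 cytochrome P450 genes of drug metabolism 4 were higher and 1 lower (median 0.16). Cyp2a5 had 16.1 CPM at 48 h and 67.3 at 96 h (ratio 1.99), and Cyp3a25 had 183 and 509 (ratio 1.47). Cyp3a11 had 1539 CPM in the control and 3585, 2253 and 3446 CPM at 24, 48 and 96 h. In the glutathione and antioxidant list 4 of 14 were higher (median 0.37, or 0.08 without mixed barcodes). Gstm1 had 873 and 2051 CPM, and Gclc, which limits glutathione synthesis, 208 and 443.

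The major urinary proteins are pheromone carriers of mouse liver whose genes are near copies of each other, so single members are uncertain. Of 12 measured genes 4 were at least 2-fold lower at 96 h and none higher (median -0.70). Mup11 had 27298 CPM in the control and 8270, 2017 and 385 CPM at 24, 48 and 96 h. Mup20 had 21418, 10523, 2656 and 4464 CPM, and Mup3 had 21979, 14119, 8100 and 7192. The whole family made up 9.10% of UMIs in the control, 1.54% at 48 h and 1.34% at 96 h. The labels give no sex, but Xist, which is expressed from the inactive X chromosome of female cells, had 1 UMI in each library (0.0480 and 0.0744 CPM). The Y-linked Ddx3y had 113 and 128 CPM and Eif2s3y 41.9 and 62.8 CPM. Of 11 measured genes that are known to be higher in male than in female mouse liver, Mup20 among them, 4 were at least 2-fold higher at 96 h and none lower (median 0.75). Selenbp2 had 1259 CPM in the control, 161 at 48 h and 566 at 96 h (ratio 1.81), and Serpina12 had 285, 37.9 and 112 (ratio 1.53). Cyp7b1 (605, 139 and 139 CPM) and Elovl3 (254, 53.2 and 50.4 CPM) had ratios just below 0. Under the level minimum, Moxd1 (115, 0.720 and 0 CPM) and Sult1e1 (0.526, 1.87 and 0.0744 CPM) were lower at 96 h. Ugt2b38 (59.6, 0.864 and 5.43 CPM), also under it, was higher. Of the genes higher in female liver only Abcd2 and Hamp2 reached a mean of 10 CPM over both libraries. Under that mean, Atp6v0d2 had 12.4 CPM at 48 h and 3.87 at 96 h, and Acot3 2.30 and 0.446. Cyp2a4 (0.144 and 4.54 CPM) and Cyp2b9 (0.0960 and 1.64 CPM), also under it, were higher at 96 h.

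Among lists with at least 5 measured members, the circadian clock list was next to the periportal list in median (1.36), with 6 of 11 measured members at least 2-fold higher and 2 lower. Without mixed barcodes its median was 0.83, below those of fatty acid synthesis (0.93), periportal genes (0.90) and the growth hormone and IGF list (0.84). Dbp, an output transcription factor of the clock, had 152 CPM in the control, 9.07 CPM at 24 h, 3.22 CPM (2.49 to 4.08) at 48 h, and 119 CPM (113 to 125) at 96 h, a ratio of 4.83. Tef, its relative, had 115, 29.5, 16.0 and 91.0 CPM, Per3 had 21.8, 3.89, 2.54 and 20.7, and the repressor Nr1d1 had 106, 47.1, 27.3 and 93.2. The 2 members lower at 96 h were Arntl, a clock activator that is known to oscillate opposite to Dbp (17.5 and 4.84 CPM), and Nfil3 (20.7 and 8.63 CPM). The other 2 members past 2-fold were Nr1d2, a repressor related to Nr1d1, with 101, 51.7, 27.8 and 82.5 CPM, and Usp2, a ubiquitin protease, with 47.2, 14.0, 11.6 and 31.5 CPM. All 6 higher members were below the control at 48 h and at 96 h, and closer to it at 96 h. In the control Arntl had 4.28 CPM and Nfil3 11.9. The time of day of collection is not given, and its part in these values was not tested.

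In the growth hormone and IGF list 5 of 12 members were higher and 2 lower (median 0.68). Cish, a feedback inhibitor induced by growth hormone through STAT5, had 50.8 CPM in the control, 10.5 CPM at 24 h, 2.83 CPM (2.16 to 3.65) at 48 h, and 41.3 CPM (37.9 to 44.9) at 96 h, a ratio of 3.46. The receptor Ghr had 596, 252, 222 and 495 CPM (ratio 1.16). Igf1 itself had 988 and 1411 CPM. Igfbp1, which binds IGF and is repressed by insulin, had 23.6, 468, 235 and 42.9 CPM (ratio -2.43), and the repressor Bcl6 had 18.7 and 5.21 CPM. Onecut1 (HNF6), a hepatocyte transcription factor, had 19 CPM in the control, 7.06 at 48 h and 56.4 at 96 h (ratio 2.83).

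Among 16 hepatocyte transcription factors 4 were at least 2-fold higher and none lower (median 0.30, or 0.09 at 10 to 20% mitochondrial UMIs). Cebpa, a factor of the mature hepatocyte, had 352 CPM in the control and 72.5, 81.2 and 263 CPM at 24, 48 and 96 h (ratio 1.69). Its relative Cebpb had 298, 628, 487 and 250 CPM (ratio -0.96). Cebpb thus had the higher level at 48 h, and the levels of the 2 were close at 96 h. Foxa2 had 33.9 and 98.1 CPM and Foxa1 12.5 and 28.3, whereas Hnf4a was at 230 and 291.

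Hamp2, a near copy of the hepcidin gene Hamp, had the highest ratio of all genes tested (5.14). It had 13.9 CPM in the control, 5.12 CPM at 24 h, 3.5 CPM (2.75 to 4.41) at 48 h, and 157 CPM (151 to 164) at 96 h. Hamp, which encodes the hormone that limits iron export, had 429, 2188, 1114 and 1371 CPM (ratio 0.30). With cells thinned to 1000 UMIs, Hamp2 was seen in 11.2% of hepatocytes at 96 h (9.02 to 13.6) and in 3.87% of T and NK barcodes (1.57 to 7.81), and its free RNA stood at 223 CPM. Of 14 iron genes the other member at least 2-fold higher was the iron exporter Slc40a1 (31.2 and 84.2 CPM), and the list median was -0.00.

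The remaining genes with the highest ratios belong to no list. Arrdc3, an arrestin-like protein, had 128 CPM in the control, 6.67 at 48 h (5.61 to 7.88) and 139 at 96 h (132 to 145), a ratio of 4.19. Clec2h had 16.3, 0.720 and 29.4 CPM (ratio 4.14), Mme (neprilysin) 9.61, 2.35 and 28.4 (ratio 3.13), and the succinate receptor Sucnr1 28.1, 3.70 and 40.0 (ratio 3.13). Car3, a carbonic anhydrase, had 2588, 282 and 2573 CPM (ratio 3.19), and the carboxylesterase Ces3b 457, 27.3 and 231 (ratio 3.03). Phlda1 had 865, 47.8 and 357 CPM (ratio 2.87). These genes were lower at 48 h than in the control, and at 96 h the first 5 were near or above it. Car3 gave 1 UMI per thinned cell at 48 h (0 to 3) and 8 at 96 h (3 to 17), the same median as in the control.

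Several lists stayed under 2-fold throughout. None of 80 cytosolic ribosomal protein genes, 37 proteasome genes, 72 nuclear-encoded respiratory chain genes, 22 coagulation and complement genes or 13 interferon response genes passed 2-fold in either direction. Over all 7046 genes only 4.23% were at least 2-fold higher and 3.22% lower. A count of 0 or 1 in the shorter lists of this paragraph is therefore close to the share of all genes. Of the 13 interferon ratios 11 lay above 0 and 2 below. The medians of the lists are given in the same order. These medians were -0.20, -0.05, 0.14, 0.29 and 0.39. Ribosomal proteins made up 8.5% of UMIs at 48 h and 7.01% at 96 h, with Rps28 (1125 and 609 CPM) among the members with the largest difference. In the unfolded protein response list 1 of 20 was lower (Creld2, 68.7 and 25.2 CPM). Of 12 apolipoproteins Apoa4 was lower (215 and 105 CPM). Among 16 serpins 4 were higher and 1 lower, with Serpina6, the cortisol-binding globulin, at 63.6 and 144 CPM and Serpina10 at 539 and 210. Of 15 genes of the immature liver only Spink1 (5.28 and 16.3 CPM) and Tff3 (10.1 and 19.3 CPM) reached a mean of 10 CPM, and Spink1 was at least 2-fold higher. The fetal plasma protein Afp stood at 4.46 and 3.57 CPM.

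Summed markers of neutrophils and of erythroid cells were also lower in the hepatocyte barcodes at 96 h. The 11 markers of neutrophils and their precursors summed to 420 CPM at 48 h and 55.5 at 96 h, and in free RNA to 1989 and 133 CPM. At least 3 of them were present in 592 of 719 barcodes at 48 h and in 9 of 771 at 96 h. These barcodes were not thinned, and their median depths were 26230 and 16034 non-mitochondrial UMIs. S100a9 (106 and 12 CPM), S100a8 (63.0 and 7.74) and the granule protease Prtn3 (220 and 33.3) were among the 15 lowest genes, as was the antibody heavy chain Igha (26.7 and 2.08 CPM). Their free RNA was higher at 48 h too, for S100a9 at 887 and 37.1 CPM. Prtn3, which gave most of the summed level at 48 h, had 333 and 66.5 CPM in free RNA. Of the other granule genes, Elane was at 0.912 and 0.298 CPM in hepatocytes and 1.06 and 0.452 in free RNA, and Mpo at 0.144 and 0.223 CPM in hepatocytes. With cells thinned to 1000 UMIs, Prtn3 was seen in 16.0% of hepatocytes at 48 h (13.4 to 18.9) and 2.94% of T and NK barcodes (1.65 to 4.8), and S100a9 in 12.7% and 5.48%. The 8 erythroid markers summed to 763 and 331 CPM, of which Hbb-bs, a globin, gave 492 and 183. At least 3 erythroid markers were present in 665 of 719 barcodes at 48 h and in 309 of 771 at 96 h, also without thinning. All 4 globins were lower at 96 h, whereas Alas2 (40.4 and 50.4 CPM) and Car1 (0.768 and 6.10 CPM) were higher. Endothelial markers (21.8 and 14.7 CPM), macrophage markers (0.960 and 0.670 CPM, with 2 and 4 of 9 at 0), monocyte or dendritic markers (24.5 and 13.6), T or NK markers (12.2 and 7.07) and B cell markers (10.4 and 10.6) were low in both. The 9 mesenchymal markers summed to 4.66 and 11.8 CPM, mostly from Reln (2.83 and 10.3 CPM). The part of these cells or of free RNA in the blood cell genes was not tested.

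The 7 cholangiocyte markers summed to 45.1 CPM at 48 h and 188 at 96 h, with 3 and 4 of them at 0. At 96 h most of this was Spp1 (osteopontin), with 17.6 CPM in the control and 67.9, 14.1 and 156 CPM at 24, 48 and 96 h (ratio 3.38). Its free RNA stood at 17.7 and 25 CPM. With barcodes that carried 3 or more markers of another cell class left out, which kept only 22 barcodes at 48 h, the ratio of Spp1 was 0.54. With only endothelial, immune other than neutrophil, mesenchymal, cholangiocyte and platelet markers considered, it was 3.32.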

How the data were processed

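The values the authors deposited are UMI counts, 1 matrix per library, whole and not normalized, for 31053 genes and 6794880 barcodes. The submitters' processing notes name bcl2fastq 2.17.1.14, Cell Ranger, Seurat 3.1 and mm10, while software version 3.0.2 appears in the matrices, per the file headers. The annotation is not given in the sources used here.

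Hepatocyte counts were summed per library, the 13 mitochondrial genes removed, and CPM computed (numpy 2.4.6, scipy 1.17.1). Genes with a mean of at least 10 CPM over both libraries were compared, with a pseudocount of 1 CPM and a call at 2-fold. Intervals are exact Poisson or binomial at 95%. With 1 library per time point no test was possible. Free RNA came from barcodes of rank 20000 to 60000 by UMI count. TMM factors came from edgeR 4.0.16. Doublets were not called; barcodes with 3 or more markers of another cell class were left out as an alternative. Calls were checked on simulated data that held counting error only, so the check does not cover spread between animals or libraries.

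Genes were named by rule: the 15 highest and 15 lowest ratios, leaving out predicted gene models, and from each of 38 lists up to 4 members of largest ratio and 2 of highest level, with others added after their values were seen. The comparison and the lists were chosen with earlier results of these data known. Promoter windows are RefSeq's (GRCm38.p6), matched by symbol.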

Additional observations from a re-analysis of the deposited data

Results flagged for a closer look

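At 96 h 1701 of 3156 barcodes with hepatocyte transcripts and at least 5000 UMIs lay above the upper mitochondrial limit (53.9%, 52.1 to 55.6). They did not enter the main comparison. At 48 h 363 of 1258 (28.9%, 26.4 to 31.4) lay above the limit, with 31.8% in the control and 23.6% at 24 h. These barcodes had a median of 9725 UMIs at 96 h and 14823 at 48 h. They stand out as data outside the comparison at a level above that of the control library. With the limit raised to 50%, an alternative chosen after the data were seen, 293 genes were at least 2-fold higher and 225 lower.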

How the results depend on the processing

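In the main settings 298 genes were at least 2-fold higher and 227 lower. These counts were 179 and 138 with a pseudocount of 10 CPM, 466 and 500 without a level minimum, 171 and 64 with a minimum of 50 CPM, and 542 and 392 without mixed barcodes (22 barcodes at 48 h and 452 at 96 h). With a mitochondrial share of 10 to 20% (116 and 53 barcodes) 374 genes were higher and 367 lower, and among non-cycling barcodes (120 and 373) 386 were higher and 124 lower (75.7% of calls higher, against 56.8%). The median of the mitosis list was -1.37 with the pseudocount of 10, -1.63 with the minimum of 50 CPM, -3.66 at 10 to 20% mitochondrial and -1.37 without mixed barcodes. It was 0.04 among non-cycling barcodes, which were chosen for lacking those genes. The median of the acute phase list was -1.33 with the pseudocount of 10, -1.35 without a minimum, -1.50 under TMM, -1.49 under median-of-ratios scaling, -1.01 at 10 to 20% mitochondrial, -1.42 without mixed barcodes, -1.36 with free RNA subtracted, -1.46 among non-cycling barcodes and -1.43 at 10 to 50% mitochondrial. That of the urea cycle list was 0.32 under both scalings and 0.64 at 10 to 20% mitochondrial. The mitosis-positive shares at 48 h and 96 h were 69.4% and 25.7% without thinning, 36.2% and 7.91% with at least 5 genes required, 59.5% and 7.55% at 10 to 20% mitochondrial, and 39.1% and 9.56% at 10 to 50%. Without mixed barcodes the 48 h share was 36.4%.

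Some directions turned. Without a level minimum the medians of the female-biased and immature liver lists were -0.155 and -0.0697, Hist1h2ap had a ratio of 0.81 among non-cycling barcodes, and Hspa1b one of -0.85 without mixed barcodes. Among non-cycling barcodes the medians of the cholesterol (-0.18), cytochrome P450 (-0.00), nucleolar (0.09) and proteasome (0.00) lists also changed sign. Other list medians moved by over 1.5 times in size, and those that follow are not all of them. Without mixed barcodes they were 0.52 for PPAR-alpha targets, 0.83 for the clock, 0.90 for periportal and 0.08 for glutathione and antioxidant genes. With the minimum of 50 CPM they were -0.37 for replication, -0.37 for major urinary proteins, 0.23 for glutathione and antioxidant genes and 0.63 for interferon genes. Cholesterol synthesis was at 0.08 with this minimum, and the metallothionein and zinc list at -4.79. That list has 6 measured genes, Mt1 and Mt2 (ratios of -4.79 and -5.56) and zinc transporters, and a main median of -0.38. At 10 to 20% mitochondrial the medians were -0.36 for the cytoskeleton, -1.48 for pericentral genes and -0.59 for the whole metallothionein and zinc list. They were 0.09 for hepatocyte transcription factors, -0.04 for the unfolded protein response and 0.05 for cytochrome P450 genes. Coagulation and complement genes were at 0.46 and apolipoproteins at 0.35. With free RNA subtracted the respiratory chain list was at 0.05. Among non-cycling barcodes replication was at -0.62 and pericentral genes at -0.73. These barcodes were chosen for holding at most 1 replication gene, so the replication value partly follows from the choice. Pericentral genes were at -0.12 without mixed barcodes, -0.10 without a minimum and -0.19 with the pseudocount of 10. Major urinary proteins were at -0.34 without a minimum and -0.42 at 10 to 50% mitochondrial. The causes were not tested. Of 104 named genes past 2-fold, 104 kept their direction under each alternative except those without mixed barcodes and among non-cycling barcodes, where 103 did. For several alternatives this outcome was fixed in advance. A level minimum does not enter a ratio, and a pseudocount cannot turn its sign. TMM and median-of-ratios scaling shifted the ratios little (median of all genes 0.01 in place of 0.11), too little to turn a gene past 2-fold. Of these 104, 87 stayed past 2-fold without mixed barcodes, 91 with the pseudocount of 10, 91 among non-cycling barcodes, 95 at 10 to 20% mitochondrial, 97 under either scaling, and 101 or more under the others. The limit of 50% and the narrower set of mixed barcodes were added after the data were seen.

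No paired analysis was possible because each time point is 1 library and the replicate numbers only name samples. Depth limits genes near the minimum: 1 CPM is 20.8 UMIs at 48 h and 13.4 at 96 h.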

Other observations

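Genes outside the lists, picked after their values were seen, included further enzymes of the mature liver that stood low at 48 h. Uox, the peroxisomal enzyme that breaks down uric acid, had 1823 CPM in the control, 432 at 48 h and 1722 at 96 h (ratio 1.99), with medians of 6, 1 and 6 UMIs per thinned cell. Dio1, which activates thyroid hormone, had 249, 32.1 and 124 CPM (ratio 1.92). The sulfotransferase Sult2a8 had 1408, 118 and 637 CPM (ratio 2.43), and Upp2, a uridine phosphorylase, 417, 53.7 and 325 (ratio 2.57). Uox and Upp2 came closer to the control at 96 h than Dio1 and Sult2a8 did.

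Lrg1 and Fabp5, also picked after their values were seen, were lower at 96 h. Lrg1, a plasma glycoprotein, had 839 CPM in the control, 2308 at 48 h and 520 at 96 h (ratio -2.15). The fatty acid carrier Fabp5 had 169, 626 and 191 CPM (ratio -1.71). Both were highest at 48 h among these 3 libraries.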
